A study of Mus musculus with 12 samples.

Results

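Mouse mammary organoids kept for 7 days with 3 µM CHIR99021 were compared with organoids of the same cultures kept with the vehicle, dimethyl sulfoxide (DMSO). The comparison uses 6 of the 12 libraries of the series, the 3 titled with the 3 µM dose of the compound and the 3 titled DMSO. The others received 1 or 1.5 µM and enter only where named. The organoids were taken from virgin FVB/N females aged 8 to 11 weeks, embedded in growth-factor reduced Matrigel and fed minimal medium in both groups. No genetic change is listed for either group. Per the series' design text, 3 independent cultures were started from 3 animals, and each culture received every treatment. Cultures 1, 2 and 3 are the replicate numbers of the titles and carry the letters B, D and E in the column names. Values given as triples are in the order of cultures 1, 2 and 3. The unit is CPM, a gene's count scaled to a common library total and not to gene length, so levels are compared between groups, and a ranking of genes by CPM gained or lost is one of reads and not of molecules.

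CHIR99021 inhibits the kinase GSK3, which marks β-catenin (CTNNB1) for destruction, and is used to switch on WNT target genes without a WNT ligand. GSK3 has other substrates, so the compound is not specific to that pathway. The mammary epithelium is built of an inner luminal layer, marked by the simple keratins Krt8, Krt18 and Krt19, and an outer basal layer, marked by Krt5 and Krt14, whose cells contract in response to oxytocin. Epidermis makes the same basal keratins, and as its cells leave the basal layer they switch to Krt1 and Krt10 and assemble a cross-linked protein and lipid shell, the cornified envelope. When mammary epithelium makes such genes it is called squamous differentiation.

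The DMSO libraries held 21695967, 10129264 and 18315479 counts and the 3 µM libraries 14627225, 18482211 and 15784365 counts. Libraries of the same culture deviated from their group means in the same direction, with a correlation over genes of 0.177 to 0.438 in the 3 pairs of a DMSO and a 3 µM library, and the culture was kept as a block in the model. The 10 epithelial markers summed to 4345 to 7500.1 CPM with DMSO and to 17024 to 33833 CPM at 3 µM. Krt14 and Krt5 carried this rise. The other 8 markers summed to 4837, 2947 and 3095 CPM with DMSO and 2873, 2972 and 3012 CPM at 3 µM, and of these 4 were called higher and 3 lower (1 lower without culture 1 or with only these 2 groups). Other cell types of the gland left RNA in the DMSO libraries: 7 adipocyte markers summed to 4473 to 11535 CPM, 13 fibroblast markers to 4132 to 24619 CPM and 11 macrophage markers to 304 to 3074 CPM. At 3 µM these sums were 37.7 to 247, 247 to 5455 and 43.2 to 135 CPM. In RNA from whole organoids, fewer cells of a type and less RNA per cell cannot be told apart, and this holds for every gene group below.

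Of 15316 genes tested, 10560 (68.9%) passed an adjusted p of 0.05 in edgeR's quasi-likelihood test, 5224 (34.1%) of them higher at 3 µM and 5336 (34.8%) lower. A change of over 2-fold was also met by 5391 genes (35.2%), 2085 (13.6%) higher and 3306 (21.6%) lower. These shares are the background for every count of a gene group. The median log2 fold change over all genes was −0.0324. Scaled by library size alone, that median was −0.232 and 37.4% of 10524 called genes were higher, against 49.5% with the scaling used here. Of the called genes, 97.91% had the same sign in all 3 cultures. Over all tested genes, 9318 (60.8%) had DMSO and 3 µM libraries that did not overlap. Gene lists whose calls all went 1 way had no member the other way at an unadjusted p under 0.05 either, and none in DESeq2 but 1 keratin and 1 collagen. The few that passed with a library left out or with library size alone are given beside their lists. Among genes at 50 CPM or more in either group, the balance was turned, with 903 more than 2-fold higher and 696 more than 2-fold lower.

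**Figure D1:**
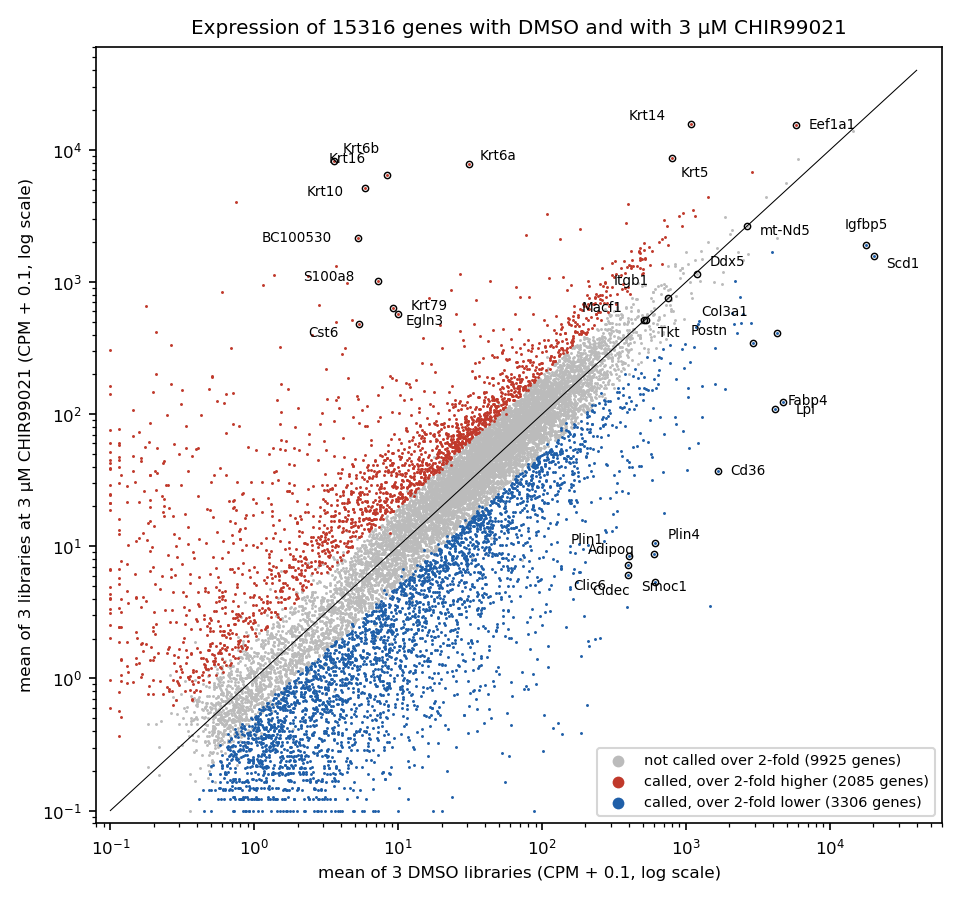
Mean level of each of the 15316 tested genes over the 3 DMSO libraries (x) and the 3 libraries at 3 µM (y), in CPM plus 0.1 on log axes. Red and blue points are the 2085 genes called more than 2-fold higher and the 3306 called more than 2-fold lower, and labels mark the most changed, most gained or lost and most stable abundant genes. The keratins Krt14, Krt5, Krt6a, Krt6b, Krt16 and Krt10 lie at the top above the diagonal, and Fabp4, Lpl, Cd36 and Scd1 lie far below it at the right.

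Keratins were among the genes that gained the most CPM. Krt14, the basal type I keratin (ENSMUSG00000045545, chr11:100203162-100207548, GRCm38), was at 1542, 794 and 934 CPM with DMSO and 17796, 20330 and 8746 CPM at 3 µM, 14.2-fold higher (log2 fold change 3.83 ± 0.28 SE, edgeR adjusted p = 5.4e-06). Its partner Krt5 was at 1121, 603 and 689 CPM with DMSO and 10084, 10531 and 5265 CPM at 3 µM, 10.8-fold higher (log2 fold change 3.43 ± 0.30 SE, edgeR adjusted p = 1.3e-05). The lowest 3 µM library of both genes, that of culture 3, lay far above the highest DMSO library. Eef1a1, the translation elongation factor, gained the next most CPM after Krt14, from 5897, 5067 and 6366 CPM to 16288, 15436 and 14322 CPM (log2 fold change 1.42 ± 0.12 SE, edgeR adjusted p = 8.7e-06).

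Among called genes with a mean of at least 5 CPM in the lower group and 50 CPM in the higher group, and of 1 direction in all cultures, 2678 rose and 1532 fell. The 8 largest rises by fold were those of Krt16, BC100530, Krt10, Krt6a, S100a8, Cst6, Egln3 and Krt79, of which 7 are described with their groups below. BC100530, of the stefin family of cathepsin inhibitors, was at 13.4, 1.73 and 0.269 CPM with DMSO and 3018, 2733 and 703 CPM at 3 µM (log2 fold change 9.08 ± 0.79 SE, edgeR adjusted p = 1.3e-05). The 8 largest falls were those of Cidec, Adipoq, Smoc1, Plin4, Plin1, Clic6, Cd36 and Fabp4, of which Cidec, Adipoq, Plin4, Plin1, Cd36 and Fabp4 serve fat storage and uptake. Cidec, which enlarges fat droplets, fell from 499.7, 935 and 385 CPM to 5.17, 10.4 and 0.138 CPM (log2 fold change −7.36 ± 0.85 SE, edgeR adjusted p = 7.1e-05). Plin4, a droplet coat protein, fell from 578, 923 and 319 CPM to 10.9, 18.4 and 2.07 CPM (log2 fold change −6.17 ± 0.46 SE, edgeR adjusted p = 5.9e-06). Outside that set, Smoc1, a secreted calcium-binding matrix protein, fell from 471, 339.5 and 378 CPM to 6.89, 8.66 and 2.41 CPM (log2 fold change −6.22 ± 0.52 SE, edgeR adjusted p = 1.0e-05). Clic6, of the chloride intracellular channel family, fell from 405, 314 and 462 CPM to 6.42, 7.25 and 7.65 CPM (log2 fold change −5.78 ± 0.14 SE, edgeR adjusted p = 8.5e-08). All 3 µM libraries of these 5 genes lay outside the range of the DMSO libraries. Of the 208 genes named here and in the closing section, 65 overlap an annotated gene on the opposite strand, and whether the counting used the strand is not given in the sources used here.

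Keratins of stressed and regenerating epidermis rose from low to very high levels. Krt6a (ENSMUSG00000058354, chr15:101689932-101694307) was at 47.2, 23.8 and 22.4 CPM with DMSO and 9004, 9790.3 and 4512 CPM at 3 µM, 249-fold higher (log2 fold change 7.96 ± 0.34 SE, edgeR adjusted p = 6.1e-07). Krt16, which pairs with Krt6 proteins, was at 14.1, 5.48 and 5.01 CPM with DMSO and 7546, 7956 and 3846 CPM at 3 µM (log2 fold change 9.60 ± 0.39 SE, edgeR adjusted p = 5.0e-07). Krt6b was at 8.04, 1.12 and 1.29 CPM with DMSO and 11334, 10578 and 2658 CPM at 3 µM (log2 fold change 11.06 ± 0.69 SE, edgeR adjusted p = 2.4e-06), and the groups of all 3 genes were orders of magnitude apart. Krt17, also induced by injury, rose 31.5-fold (log2 fold change 4.98 ± 0.35 SE, edgeR adjusted p = 4.3e-06). Together, 6 of the 8 basal and stress keratins were called higher. Krt15, a keratin of resting basal cells, was the member with a negative value, at 111, 45.97 and 48.6 CPM with DMSO and 49.4, 29.5 and 15.6 CPM at 3 µM (log2 fold change −1.08 ± 0.49 SE, edgeR adjusted p = 0.0798), and it passed as lower with library size alone, in DESeq2, with only these 2 groups and without culture 3 (adjusted p = 0.0387, 0.0286, 0.00889 and 0.0113). As a share of all counts, the list took 0.309, 0.148 and 0.177% with DMSO and 5.08, 5.22 and 2.46% at 3 µM (exact permutation p = 0.1, two-sided, the smallest that 3 against 3 allows). Keratin genes have close paralogs and pseudogenes, and reads shared between copies could be counted for either.

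The suprabasal keratins split by culture. Krt10, the type I keratin of cells that have left the basal layer, was at 9.81, 3.55 and 4.09 CPM with DMSO and 8790.5, 6583 and 154 CPM at 3 µM (log2 fold change 9.01, 95% interval 6.51 to 11.50, edgeR adjusted p = 9.7e-05). Its partner Krt1 was at 1.20, 0.304 and 0.431 CPM with DMSO and 6737, 5012 and 269.6 CPM at 3 µM (log2 fold change 12.02 ± 0.94 SE, edgeR adjusted p = 8.0e-06). Both were higher in each culture, but the 3 µM library of culture 3 held far less of both than those of the other cultures. Krt78, Krt79 and Krt80 did not share this gap: Krt79 was at 9.37, 10.5 and 9.85 CPM with DMSO and 611, 711 and 397 CPM at 3 µM (log2 fold change 5.94 ± 0.52 SE, edgeR adjusted p = 1.4e-05). Krt78 was at 0.400, 0.507 and 0.915 CPM with DMSO and 72.5, 74.6 and 106 CPM at 3 µM (log2 fold change 7.12 ± 0.39 SE, edgeR adjusted p = 1.5e-06). In all, 9 of 11 members were called higher and 1 lower (none under a stricter filter). The member that fell was Krt71, a hair follicle keratin, from 2.62, 2.23 and 2.53 CPM to 0.157, 0 and 0.0690 CPM. The list's share of counts was 0.00365, 0.00299 and 0.00267% with DMSO and 1.43, 1.06 and 0.0994% at 3 µM.

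Of the simple keratins of the luminal layer, Krt19 fell 4.09-fold, from 1462, 824 and 611 CPM to 235, 200.4 and 237 CPM (log2 fold change −2.03 ± 0.24 SE, edgeR adjusted p = 8.5e-05), with no overlap between groups. Krt8 was at 1096, 632 and 745 CPM with DMSO and 446, 542 and 486 CPM at 3 µM (log2 fold change −0.72 ± 0.18 SE, edgeR adjusted p = 0.00679). Krt18 was at 643, 460.4 and 663 CPM with DMSO and 375, 436 and 458 CPM at 3 µM (log2 fold change −0.47 ± 0.13 SE, edgeR adjusted p = 0.00975). The calls of Krt8 and Krt18 were lost when only the DMSO and 3 µM libraries were fitted (edgeR adjusted p = 0.0512 and 0.0619) and without culture 1 (0.0897 and 0.164, with a log2 fold change of −0.43 for Krt8), which leaves 1 of 4 simple keratins called lower in place of 3. Krt7, a simple keratin of ducts, rose 3.95-fold, from 114, 56.4 and 68.8 CPM to 194, 312 and 403 CPM (log2 fold change 1.98 ± 0.36 SE, edgeR adjusted p = 9.8e-04).

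**Figure D2:**
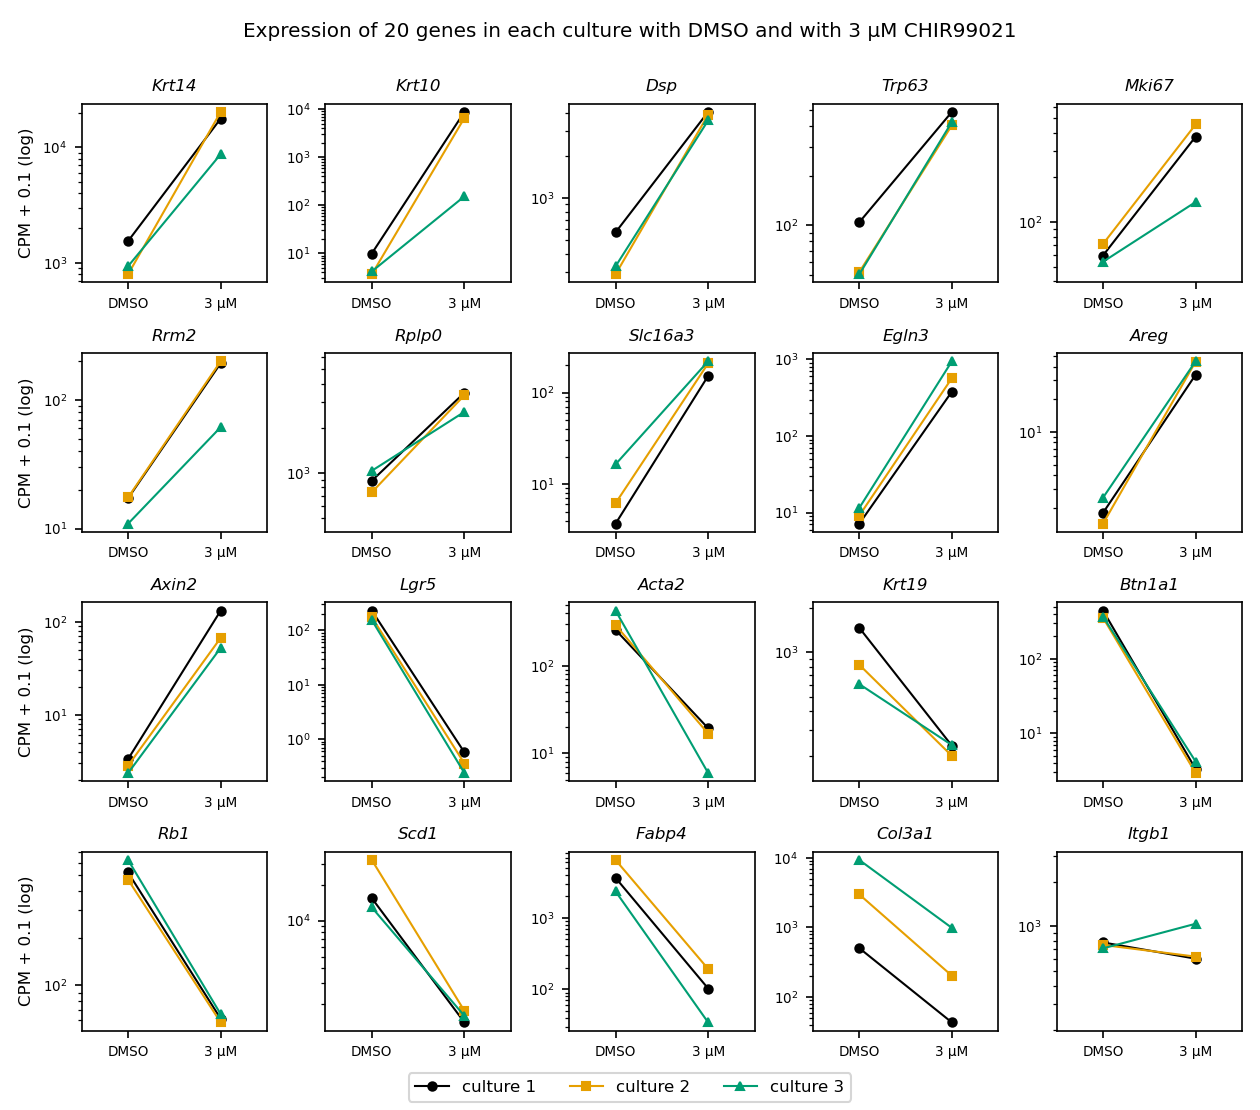
CPM plus 0.1 on log axes for 20 genes in each culture with DMSO (left) and with 3 µM CHIR99021 (right), 1 line per culture. The lines of Krt14, Dsp, Trp63, Rplp0 and Slc16a3 rise and those of Lgr5, Acta2, Btn1a1 and Rb1 fall in all 3 cultures, culture 3 ends lowest for Krt10, Mki67 and Rrm2, Col3a1 differs between cultures within each group, and Itgb1 stays within 606 to 1043 CPM.

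All 27 tested genes of the cornified envelope were called higher, each more than 2-fold, against a background of 13.6%. Of these, 4 had no read in any DMSO library. Members with almost no DMSO reads passed the count filter only through libraries with the compound, so they could not be called lower. The count is a description and not a test. The same holds for such members of the keratin, desmosome, kallikrein and serpin, and barrier lipid lists. Transglutaminases cross-link the shell: Tgm1 was at 9.68, 6.60 and 5.06 CPM with DMSO and 147, 144 and 129.6 CPM at 3 µM (log2 fold change 4.35 ± 0.17 SE, edgeR adjusted p = 4.6e-07). Tgm3 was at 0.178, 0.101 and 0.215 CPM with DMSO and 454, 534 and 17.998 CPM at 3 µM (log2 fold change 10.47 ± 0.71 SE, edgeR adjusted p = 3.6e-06), with culture 3 again lowest. The plakin scaffolds of the shell were present with DMSO and rose, Evpl from 7.55, 6.09 and 9.10 CPM to 170.5, 198 and 112 CPM (log2 fold change 4.35 ± 0.24 SE, edgeR adjusted p = 1.5e-06). Ppl rose from 46.4, 25.8 and 25.1 CPM to 231, 252 and 156 CPM (log2 fold change 2.72 ± 0.18 SE, edgeR adjusted p = 2.9e-06). The call of Tgm5 was lost without the culture block (edgeR adjusted p = 0.136).

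Proteins that fill or seal the shell started from almost no reads. Lor, loricrin, its main component in epidermis, was at 0.133, 0 and 0 CPM with DMSO and 175, 129.7 and 15.8 CPM at 3 µM. Ivl, involucrin, an early substrate of the transglutaminases, was at 0, 0 and 0.915 and 81.4, 59.8 and 23.5 CPM, and its log2 fold change was 7.13 with all libraries and 13.23 without the DMSO library of culture 3, the only one of its group with reads, and 13.27 without culture 3. Sprr1b, a small proline-rich protein, was at 1.29, 0.203 and 0 and 1014, 1182 and 318 CPM and Rptn, repetin, at 0.178, 0 and 0.0538 and 693, 810.2 and 478 CPM. The edgeR adjusted p was 6.4e-07 for Lor, 6.6e-05 for Ivl, 6.4e-07 for Sprr1b and 6.6e-07 for Rptn. The DMSO libraries of these 4 genes hold a few reads or none, so the fitted values of Ivl depend on the prior count and no fold is given for the other 3. Secreted or junctional members were better covered: Dmkn, dermokine, was at 51.5, 17.3 and 11.8 CPM with DMSO and 1204, 1144 and 1116 CPM at 3 µM (log2 fold change 5.67 ± 0.42 SE, edgeR adjusted p = 5.8e-06). Sbsn, suprabasin, was at 63.7, 73.4 and 58.1 CPM with DMSO and 508, 584 and 610.3 CPM at 3 µM (log2 fold change 3.15 ± 0.20 SE, edgeR adjusted p = 2.6e-06). Cdsn, corneodesmosin, was at 8.04, 3.86 and 2.05 CPM with DMSO and 364, 409.7 and 765 CPM at 3 µM (log2 fold change 6.90 ± 0.58 SE, edgeR adjusted p = 1.1e-05). The 28 genes of the list in the table took 0.0232, 0.0137 and 0.0121% of counts with DMSO and 0.788, 0.803 and 0.615% at 3 µM.

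The promoters of this and the other groups were searched for 8 motifs, which the choice of genes did not use. The motif TGANTCA, with N any base, was searched on both strands in the 250 bases before each RefSeq start site (GRCm38.p6). It covers the AP-1 sites TGACTCA and TGAGTCA, bound by JUN and FOS proteins, and the looser forms TGAATCA and TGATTCA. The counts do not separate them. TGANTCA was present for 13 of the 25 cornified envelope genes with a window (52%) and for 6.14% of the 11029 tested genes with a window. The kallikrein and serpin list held it for 5 of 17 (29.4%). It was also in 4 of 13 windows of matrix protease genes (30.8%) and 4 of 17 of interferon-induced genes (23.5%), lists with more lower than higher calls. Of all genes with a window, it was present in 9.3% of those called more than 2-fold higher and 7.23% of those lower. The motif is shown for 4 members with it, as the 150 bases before the start site, 5′ to 3′ on the gene's strand, with the motif in capitals. Lor and Ivl hold an AP-1 site, and Sprr1b and Rptn a looser form. The stretches are chr3:92083143-92083292 (minus strand) for Lor, chr3:92573736-92573885 (minus) for Ivl, chr3:92438780-92438929 (minus) for Sprr1b and chr3:93393549-93393698 (plus) for Rptn.
Lor: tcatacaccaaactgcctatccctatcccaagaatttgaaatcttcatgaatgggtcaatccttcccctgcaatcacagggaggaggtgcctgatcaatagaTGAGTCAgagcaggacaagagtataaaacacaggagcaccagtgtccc
Ivl: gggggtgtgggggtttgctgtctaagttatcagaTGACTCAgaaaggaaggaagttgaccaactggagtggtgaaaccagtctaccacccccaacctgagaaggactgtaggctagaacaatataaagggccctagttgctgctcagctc
Sprr1b: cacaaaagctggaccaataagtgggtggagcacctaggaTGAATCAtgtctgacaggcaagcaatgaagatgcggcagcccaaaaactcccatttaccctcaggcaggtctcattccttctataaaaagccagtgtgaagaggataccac
Rptn: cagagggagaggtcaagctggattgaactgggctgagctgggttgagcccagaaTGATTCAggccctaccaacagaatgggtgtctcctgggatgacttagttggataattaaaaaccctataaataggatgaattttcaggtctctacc
The first base of the motif lies 48 bases before the start of Lor, 116 before that of Ivl, 111 before that of Sprr1b and 96 before that of Rptn. All 4 genes lie on chromosome 3. The WNT effector motif CTTTGAT (TCF/LEF) was in 2.79% of all windows, 2.62% of those of genes more than 2-fold higher and 2.99% of those lower. By list, it was in 3 of 25 windows of cornified envelope genes (12%), 1 of 8 of WNT feedback genes (12.5%) and 2 of 9 of YAP pathway genes (22.2%). It was in 0 of 17 of the kallikrein and serpin list and 0 of 9 of the squamous transcription factors. A match is a run of letters and not evidence of binding. The cornified envelope list holds close paralogs, so its windows are not independent of each other.

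Genes of desmosomes, the junctions that link the keratin filaments of neighbouring cells, rose too. Dsp, desmoplakin, which anchors the filaments, was at 569, 286 and 326 CPM with DMSO and 4098, 3912 and 3565 CPM at 3 µM (log2 fold change 3.34 ± 0.18 SE, edgeR adjusted p = 1.1e-06). Pkp1, plakophilin of stratified epithelium, was at 197, 100 and 103 CPM with DMSO and 2012, 2185 and 2165 CPM at 3 µM (log2 fold change 4.07 ± 0.22 SE, edgeR adjusted p = 1.4e-06). Perp, a desmosomal membrane protein, was at 286, 142 and 123 CPM with DMSO and 2654, 2578 and 2380.3 CPM at 3 µM (log2 fold change 3.87 ± 0.22 SE, edgeR adjusted p = 1.7e-06). The 3 µM libraries of these 3 genes agreed within a narrow range and stood clear of the DMSO libraries. The desmosomal cadherins of upper epidermal layers went up most, Dsc1 from 0.755, 0.101 and 0.377 CPM to 245, 199 and 127 CPM (log2 fold change 8.64 ± 0.37 SE, edgeR adjusted p = 6.1e-07). Dsg1a rose from 2.40, 0.507 and 1.40 CPM to 231, 194 and 79.8 CPM (log2 fold change 6.63 ± 0.34 SE, edgeR adjusted p = 1.1e-06). In total, 13 of 14 members were called higher. Pkp2, the plakophilin of simple epithelia and heart, was at 41.4, 27.5 and 31.1 CPM with DMSO and 26.7, 35.6 and 30.4 CPM at 3 µM (log2 fold change −0.09 ± 0.17 SE, edgeR adjusted p = 0.629).

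Enzymes that shed the outer layers and their inhibitors were called higher for 16 of 20 members, against 34.1% of all tested genes. The kallikreins cut corneodesmosin and its partners: Klk7 was at 4.75, 1.83 and 1.61 CPM with DMSO and 472, 554 and 972 CPM at 3 µM (log2 fold change 7.87 ± 0.54 SE, edgeR adjusted p = 3.8e-06). Klk14 was at 3.29, 2.64 and 1.29 CPM with DMSO and 386, 476 and 320.4 CPM at 3 µM (log2 fold change 7.37 ± 0.36 SE, edgeR adjusted p = 9.4e-07). Their inhibitor Spink5 was at 38.2, 23.9 and 18.03 CPM with DMSO and 353, 439 and 479 CPM at 3 µM (log2 fold change 4.00 ± 0.29 SE, edgeR adjusted p = 4.8e-06). Cst6, an inhibitor of cathepsins, was at 8.30, 3.25 and 4.09 CPM with DMSO and 397, 416 and 626 CPM at 3 µM (log2 fold change 6.45 ± 0.36 SE, edgeR adjusted p = 1.4e-06). Klk10 was at 173, 77.02 and 85.8 CPM with DMSO and 1381, 1461 and 355 CPM at 3 µM (log2 fold change 3.10 ± 0.44 SE, edgeR adjusted p = 2.4e-04), with culture 3 below the others. The membrane proteases St14 and Prss8 did not follow: St14 was at 252, 179.6 and 232 CPM with DMSO and 237, 248 and 223 CPM at 3 µM (log2 fold change 0.09 ± 0.14 SE, edgeR adjusted p = 0.572). Prss8 was at 60.7, 42.9 and 57.6 CPM with DMSO and 42.5, 47.8 and 55.03 CPM at 3 µM (log2 fold change −0.15 ± 0.14 SE, edgeR adjusted p = 0.353).

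Of 18 genes for the barrier lipids, 12 were called higher and 1 lower, against 34.1% and 34.8% of all tested genes. Members with almost no DMSO reads, such as Alox12b, could not be called lower. Elovl4, which makes the very long fatty acids of skin ceramides, was at 2.62, 4.26 and 3.93 CPM with DMSO and 153, 148 and 83.1 CPM at 3 µM (log2 fold change 5.12 ± 0.33 SE, edgeR adjusted p = 3.1e-06). Cers3, which joins them to sphingoid bases, was at 2.84, 0.710 and 0.646 CPM with DMSO and 91.5, 80.5 and 79.9 CPM at 3 µM (log2 fold change 5.92 ± 0.39 SE, edgeR adjusted p = 3.4e-06). Alox12b, the lipoxygenase that prepares ceramides for attachment to the shell, had no read in any DMSO library and reached 50.5, 56.5 and 47.8 CPM with the compound. Measured against 3 counts per DMSO library, this is at least 258-fold higher. Smpd1, acid sphingomyelinase, fell from 46.8, 65.2 and 49.1 CPM to 31.8, 35.1 and 23.6 CPM (log2 fold change −0.83 ± 0.10 SE, edgeR adjusted p = 1.1e-04).

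Transcription factors of stratified epithelium were called higher in 14 of 18 cases. Trp63, the p63 gene that maintains basal epithelium (ENSMUSG00000022510, chr16:25683763-25892102), was at 104, 51.7 and 50.1 CPM with DMSO and 488, 405 and 424 CPM at 3 µM (log2 fold change 2.76 ± 0.18 SE, edgeR adjusted p = 2.8e-06). Klf4, which promotes barrier formation, was at 25.4, 18.1 and 16.4 CPM with DMSO and 369.9, 365 and 219.9 CPM at 3 µM (log2 fold change 3.97 ± 0.12 SE, edgeR adjusted p = 2.3e-07). Grhl3, an activator of Tgm1, was at 1.69, 0.913 and 1.72 CPM with DMSO and 76.3, 68.8 and 45.3 CPM at 3 µM (log2 fold change 5.38 ± 0.24 SE, edgeR adjusted p = 6.1e-07). The DMSO and 3 µM libraries of all 3 were well apart. Zfp750, which acts downstream of p63, rose 3.94-fold and Tfap2a 3.51-fold (edgeR adjusted p = 7.0e-06 and 3.9e-05). Maf, which acts late in epidermis, was at 24.2, 34.3 and 63.1 CPM with DMSO and 24.1, 44.1 and 38.5 CPM at 3 µM (edgeR adjusted p = 0.613). Scaled by library size alone, 1 of the 18 was called lower.

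The S100 genes, small calcium-binding proteins encoded beside the cornified envelope genes, were called higher for 9 of 12 members and lower for 3. S100a8, a subunit of the antimicrobial calprotectin, was at 4.17, 5.07 and 12.1 CPM with DMSO and 494, 936 and 1601 CPM at 3 µM (log2 fold change 7.10 ± 0.43 SE, edgeR adjusted p = 2.1e-06), highest in culture 3. S100a14 was at 23.4, 10.1 and 10.5 CPM with DMSO and 385, 413 and 327 CPM at 3 µM (log2 fold change 4.71 ± 0.25 SE, edgeR adjusted p = 1.2e-06). Against these, S100a4, a marker of mesenchymal cells, fell from 49.7, 112 and 101 CPM to 14.1, 40.3 and 19.03 CPM (log2 fold change −1.86 ± 0.26 SE, edgeR adjusted p = 2.4e-04), and S100a1 and S100a13 fell as well (edgeR adjusted p = 7.4e-05 and 6.2e-06). Of the gap and tight junction genes, 14 of 18 were called higher and 3 lower. Gjb2, connexin 26, which is induced in thickened epidermis, was at 17.7, 21.7 and 9.74 CPM with DMSO and 939.6, 944 and 373 CPM at 3 µM (log2 fold change 5.50 ± 0.28 SE, edgeR adjusted p = 1.1e-06). Gja1, connexin 43, was at 242, 198 and 199 CPM with DMSO and 876, 815 and 1124 CPM at 3 µM (log2 fold change 2.14 ± 0.14 SE, edgeR adjusted p = 2.3e-06). Cldn4 rose 6.52-fold (edgeR adjusted p = 1.1e-04), while Cldn5, the claudin of blood vessels, fell 8.04-fold (edgeR adjusted p = 9.2e-05).

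**Figure D3:**
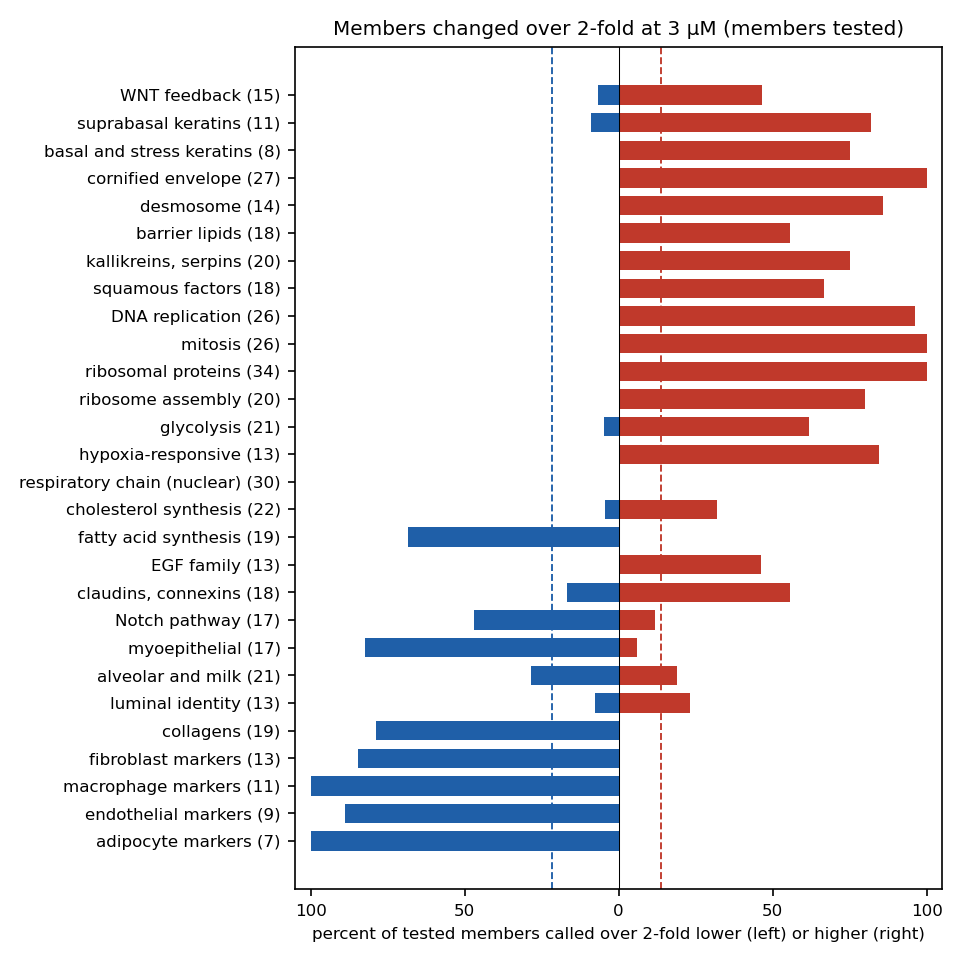
Percent of the tested members of 28 gene lists (number tested in brackets) that were called more than 2-fold lower (bars to the left) or higher (bars to the right) at 3 µM. Dashed lines mark the share among all 15316 genes, 21.6% lower and 13.6% higher. Cornified envelope, mitosis and ribosomal protein genes reach 100% to the right, macrophage and adipocyte markers reach 100% to the left, and the nuclear respiratory chain has no bar.

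WNT feedback genes checked the labels and did not move as a block. Axin2, the general readout of β-catenin activity (ENSMUSG00000000142, chr11:108920349-108950783), was at 3.24, 2.74 and 2.26 CPM with DMSO and 132, 67.1 and 52.4 CPM at 3 µM, 30.2-fold higher (log2 fold change 4.92 ± 0.25 SE, edgeR adjusted p = 1.1e-06). The ubiquitin ligase Znrf3, which removes WNT receptors, was at 15.98, 14.4 and 14.5 CPM with DMSO and 43.6, 37.8 and 27.1 CPM at 3 µM (log2 fold change 1.26 ± 0.12 SE, edgeR adjusted p = 2.3e-05). The effector Tcf7 was at 12.6, 5.18 and 5.27 CPM with DMSO and 49.6, 48.1 and 45.7 CPM at 3 µM (log2 fold change 2.72 ± 0.22 SE, edgeR adjusted p = 7.7e-06). Groups did not overlap for these 3 genes. Lgr5, a WNT target in stem cells and a receptor that strengthens WNT signals, moved against them, from 231, 175 and 155 CPM to 0.470, 0.257 and 0.138 CPM (log2 fold change −9.36 ± 0.40 SE, edgeR adjusted p = 6.1e-07). Lef1, a target in many tissues, was at 0.577, 0.710 and 0.377 CPM with DMSO and 0.470, 0.834 and 1.24 CPM at 3 µM (edgeR adjusted p = 0.443). Nkd1, a feedback inhibitor, was at 5.15, 8.02 and 11.1 CPM with DMSO and 6.19, 5.84 and 2.55 CPM at 3 µM (edgeR adjusted p = 0.301). In all, 9 of 15 members were called higher and 2 lower (1 lower without culture 1 or with only these 2 groups). Sp5 and Dkk4 had too few reads to be tested.

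The cell cycle genes rose together. All 26 mitosis genes were called more than 2-fold higher, with a median log2 fold change of 2.39, and all 26 DNA replication genes were called higher, 25 of them more than 2-fold, with a median of 1.87. Mki67, a marker of cycling cells, was at 59.5, 71.1 and 53.98 CPM with DMSO and 377, 455 and 137 CPM at 3 µM (log2 fold change 2.32 ± 0.32 SE, edgeR adjusted p = 2.1e-04). Top2a, the topoisomerase that untangles chromosomes, was at 56.3, 58.9 and 41.5 CPM with DMSO and 329, 409 and 149 CPM at 3 µM (log2 fold change 2.45 ± 0.25 SE, edgeR adjusted p = 3.2e-05). Cdk1, the mitotic kinase, was at 16.9, 16.3 and 13.9 CPM with DMSO and 104, 128 and 49.6 CPM at 3 µM (log2 fold change 2.52 ± 0.26 SE, edgeR adjusted p = 3.4e-05). Groups did not overlap for 26 of the mitosis and 26 of the replication genes, against 60.8% of all tested genes. Culture 3 was lowest at 3 µM for each gene named here. Of the replication genes, Rrm2, the limiting subunit of ribonucleotide reductase, was at 17.1, 17.4 and 10.8 CPM with DMSO and 192, 199 and 61.2 CPM at 3 µM (log2 fold change 3.23 ± 0.27 SE, edgeR adjusted p = 1.1e-05). Mcm5, a subunit of the helicase, was at 25.98, 19.5 and 19.4 CPM with DMSO and 143, 158 and 63.3 CPM at 3 µM (log2 fold change 2.43 ± 0.25 SE, edgeR adjusted p = 3.6e-05).

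Promoters of the mitosis genes were searched for the CCAAT box and for the cell cycle homology region TTTGAA, the motif bound by a complex that represses such genes in resting cells. CCAAT was found in the 250 bases before the start of 18 of 21 mitosis genes with a window (85.7%), 15 of 21 replication genes (71.4%) and 39.5% of all tested genes. It was also in 16 of 16 windows of the sterol list (100%), 6 of 7 of antigen presentation genes (85.7%), mostly called lower, and 9 of 12 of hormone-sensing genes (75%). TTTGAA was found for 8 of the 21 mitosis genes (38.1%) and 12.9% of all. In lists called mostly lower it was in 3 of 5 windows of endothelial markers (60%) and 3 of 6 of fibroblast markers (50%). The last 100 bases before the start site are shown for 4 members, 5′ to 3′ on the gene's strand, with both motifs in capitals, read on either strand (ATTGG and TTCAAA are their reverse complements). Top2a and Kif11 hold both motifs, and Ccnb2 and Ttk hold CCAAT more than once. The stretches are chr11:99024190-99024289 (minus strand) for Top2a, chr9:70421555-70421654 (minus) for Ccnb2, chr19:37376282-37376381 (plus) for Kif11 and chr9:83834589-83834688 (plus) for Ttk.
Top2a: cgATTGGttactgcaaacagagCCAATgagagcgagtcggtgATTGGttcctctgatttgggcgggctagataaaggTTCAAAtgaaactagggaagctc
Ccnb2: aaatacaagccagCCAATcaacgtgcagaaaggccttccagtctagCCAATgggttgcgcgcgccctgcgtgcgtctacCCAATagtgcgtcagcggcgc
Kif11: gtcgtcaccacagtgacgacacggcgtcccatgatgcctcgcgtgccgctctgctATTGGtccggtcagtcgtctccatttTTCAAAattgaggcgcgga
Ttk: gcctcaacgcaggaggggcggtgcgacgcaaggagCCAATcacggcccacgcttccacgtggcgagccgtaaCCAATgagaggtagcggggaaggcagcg
The other 3 rose as Top2a did. Cyclin B2 (Ccnb2) was at 8.66, 7.10 and 5.33 CPM with DMSO and 37.8, 55.7 and 14.96 CPM at 3 µM (log2 fold change 2.25 ± 0.33 SE, edgeR adjusted p = 2.7e-04). The spindle motor Kif11 was at 14.3, 14.5 and 10.6 CPM with DMSO and 93.4, 127 and 35.996 CPM at 3 µM (log2 fold change 2.61 ± 0.29 SE, edgeR adjusted p = 6.0e-05). The spindle checkpoint kinase Ttk was at 3.51, 3.96 and 2.26 CPM with DMSO and 25.8, 39.9 and 14.8 CPM at 3 µM (log2 fold change 3.00 ± 0.27 SE, edgeR adjusted p = 1.6e-05).

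Regulators of the cycle moved in both directions. Ccnd1, cyclin D1, was at 197, 134 and 131 CPM with DMSO and 603, 546 and 432 CPM at 3 µM (log2 fold change 1.78 ± 0.18 SE, edgeR adjusted p = 3.3e-05). Myc was at 40.7, 40.4 and 54.2 CPM with DMSO and 226, 175 and 164 CPM at 3 µM (log2 fold change 2.08 ± 0.16 SE, edgeR adjusted p = 6.3e-06). Rb1, the retinoblastoma protein that holds back entry into the cycle (ENSMUSG00000022105, chr14:73183673-73325822), fell 8.71-fold, from 522, 470.4 and 627 CPM to 61.3, 58.03 and 65.5 CPM (log2 fold change −3.12 ± 0.08 SE, edgeR adjusted p = 8.5e-08), with all 3 cultures alike. The inhibitor Cdkn1a (p21) rose, from 46.3, 116 and 91.8 CPM to 298, 325 and 383 CPM (log2 fold change 2.06 ± 0.20 SE, edgeR adjusted p = 2.7e-05), while Cdkn2c (p18) fell from 46.001, 85.04 and 53.3 CPM to 16.4, 20.3 and 8.83 CPM (log2 fold change −2.05 ± 0.19 SE, edgeR adjusted p = 1.7e-05). Of 21 regulators, 11 were called higher and 3 lower, and DESeq2 called 5 lower. Cdkn1a is also a p53 target, and of 18 such genes 9 were called higher and 2 lower. Pmaip1 (NOXA), which promotes cell death, was at 2.40, 3.45 and 3.23 CPM with DMSO and 60.9, 51.3 and 48.5 CPM at 3 µM (log2 fold change 4.17 ± 0.20 SE, edgeR adjusted p = 8.5e-07). Bax was at 44.2, 49.4 and 41.7 CPM with DMSO and 81.2, 86.6 and 72.1 CPM at 3 µM (log2 fold change 0.83 ± 0.06 SE, edgeR adjusted p = 3.2e-06). Mdm2, the feedback inhibitor of p53, was at 71.1, 82.7 and 66.4 CPM with DMSO and 76.3, 74.6 and 97.1 CPM at 3 µM (log2 fold change 0.17 ± 0.12 SE, edgeR adjusted p = 0.202), and Bbc3 (PUMA) fell from 8.57, 12.7 and 9.74 CPM to 4.78, 5.39 and 4.69 CPM (log2 fold change −1.05 ± 0.17 SE, edgeR adjusted p = 5.1e-04). The count of lower p53 targets was 5 with library size alone, 4 without culture 3, 5 without the 3 µM library of culture 3, and 1 without culture 2 or its 3 µM library.

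All 34 ribosomal protein genes of the list were called more than 2-fold higher, within a narrow band around their median log2 fold change of 1.67. Rplp0 was at 886, 741 and 1035 CPM with DMSO and 3476, 3341 and 2582 CPM at 3 µM (log2 fold change 1.83 ± 0.15 SE, edgeR adjusted p = 9.8e-06). Rpl4 was at 1176, 950.4 and 1218 CPM with DMSO and 3546, 3510 and 3502 CPM at 3 µM (log2 fold change 1.67 ± 0.10 SE, edgeR adjusted p = 1.5e-06). Rps3 was at 745, 627 and 836 CPM with DMSO and 2714, 2663 and 2565 CPM at 3 µM (log2 fold change 1.86 ± 0.10 SE, edgeR adjusted p = 1.2e-06). Groups did not overlap for 34 of the 34 genes, against 60.8% of all tested genes. The list took 1.46, 1.15 and 1.58% of counts with DMSO and 4.05, 3.86 and 3.84% at 3 µM. The genes that assemble ribosomes went with them, 20 of 20 called higher and 16 more than 2-fold. Npm1, nucleophosmin, was at 456, 366 and 444 CPM with DMSO and 1486, 1667 and 1277 CPM at 3 µM (log2 fold change 1.81 ± 0.12 SE, edgeR adjusted p = 3.3e-06). Ncl, nucleolin, was at 548, 467 and 531 CPM with DMSO and 1737, 1702 and 1149 CPM at 3 µM (log2 fold change 1.56 ± 0.14 SE, edgeR adjusted p = 1.7e-05). Polr1b, a subunit of the polymerase that makes ribosomal RNA, was at 28.2, 25.98 and 29.7 CPM with DMSO and 83.1, 75.8 and 69.6 CPM at 3 µM (log2 fold change 1.45 ± 0.08 SE, edgeR adjusted p = 1.6e-06).

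Ribosomal protein genes are short, and gene length moved with the direction of change over the whole table. Protein-coding genes with under 1000 bases of annotated exon had a median log2 fold change of 0.432 (310 genes, 35.5% more than 2-fold higher), and those over 8000 bases a median of −0.18 (2507 genes, 6.14% higher). The median exon length was 1918 bases for the ribosomal protein list, 4274 for the ribosome assembly list and 2166 for the 30 nuclear genes of the respiratory chain, whose median log2 fold change was 0.15. The part of gene length in the result was not tested. Ribosomal protein genes also have many processed pseudogenes, and Rps2 had only 5.95, 5.48 and 6.19 CPM with DMSO, so reads shared with copies may be missing from these values.

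**Figure D4:**
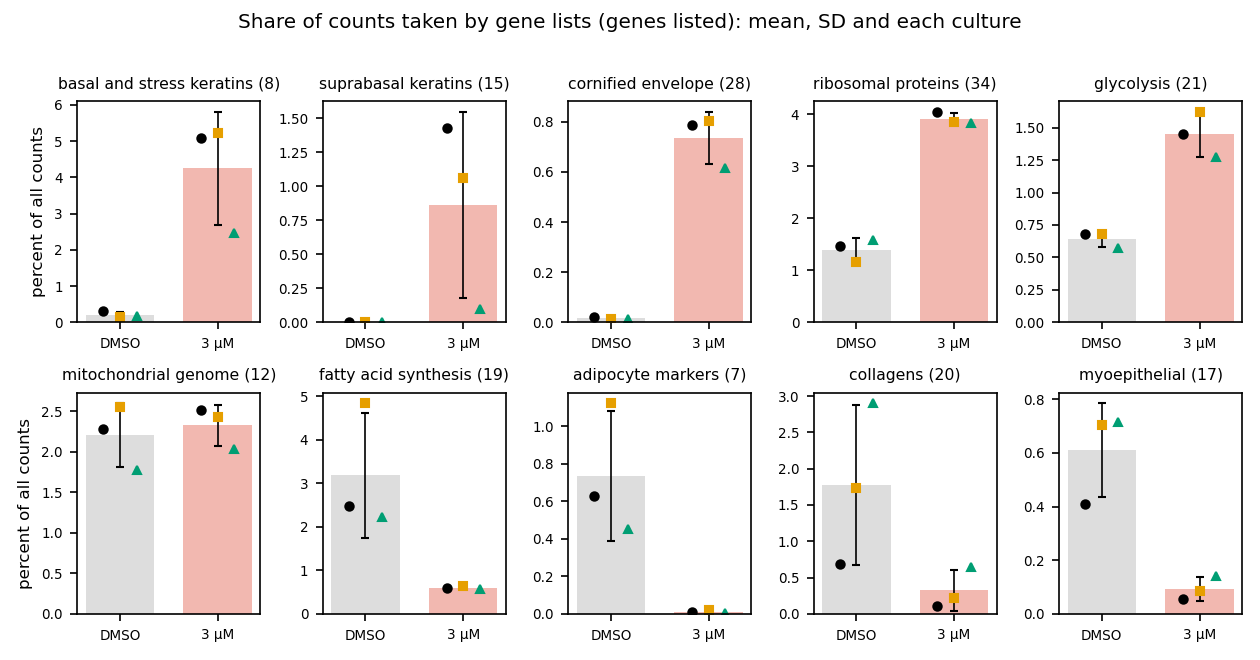
Percent of all counts of a library taken by 10 gene lists (number of genes in the table in brackets). Bars are means of 3 libraries, error bars are 1 SD, and circles, squares and triangles are cultures 1, 2 and 3. Ribosomal proteins go from a mean of 1.398 ± 0.220% to one of 3.91 ± 0.115% and fatty acid synthesis from 3.18 ± 1.44% to 0.604 ± 0.0388%, while mitochondrially encoded genes stay near 2%.

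Of 21 genes of glucose uptake and glycolysis, 13 were called higher, all more than 2-fold, and 1 lower (2 without culture 3). Slc2a1, the glucose transporter GLUT1, was at 142, 92.8 and 72.7 CPM with DMSO and 345, 474 and 740.3 CPM at 3 µM (log2 fold change 2.31 ± 0.40 SE, edgeR adjusted p = 7.3e-04). Pgk1, phosphoglycerate kinase, was at 156, 142 and 145 CPM with DMSO and 828, 922 and 846 CPM at 3 µM (log2 fold change 2.55 ± 0.34 SE, edgeR adjusted p = 1.7e-04). Eno1, enolase, was at 319, 311 and 291 CPM with DMSO and 1452, 1627 and 1068 CPM at 3 µM (log2 fold change 2.17 ± 0.25 SE, edgeR adjusted p = 6.4e-05). Pkm, pyruvate kinase, was at 1620.5, 1476 and 1172 CPM with DMSO and 4862, 5417 and 2954 CPM at 3 µM (log2 fold change 1.62 ± 0.21 SE, edgeR adjusted p = 1.2e-04). At the end of the pathway Ldha rose, from 967, 907 and 938 CPM to 2840.4, 3309.5 and 1798 CPM (log2 fold change 1.50 ± 0.27 SE, edgeR adjusted p = 0.00104). Ldhb fell, from 109.7, 153 and 98.4 CPM to 28.8, 39.7 and 24.4 CPM (log2 fold change −1.96 ± 0.12 SE, edgeR adjusted p = 1.9e-06). The lactate exporter Slc16a3 (MCT4) was at 3.60, 6.09 and 16.4 CPM with DMSO and 152, 209 and 220.1 CPM at 3 µM (log2 fold change 4.94 ± 0.57 SE, edgeR adjusted p = 7.1e-05). Gapdh was at 3.29, 4.87 and 3.28 CPM with DMSO. It has many pseudogenes, with which its reads could be shared, so its value is uncertain.

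Genes that respond to low oxygen overlap with this list and were called higher in 11 of 13 cases. Egln3, the prolyl hydroxylase PHD3, was at 7.06, 9.03 and 11.4 CPM with DMSO and 381, 572 and 949 CPM at 3 µM (log2 fold change 6.06 ± 0.95 SE, edgeR adjusted p = 4.3e-04). Car9, carbonic anhydrase IX, was at 1.78, 1.52 and 3.34 CPM with DMSO and 13.5, 16.5 and 32.6 CPM at 3 µM (log2 fold change 3.26 ± 0.38 SE, edgeR adjusted p = 7.3e-05). Hif1a itself rose 3.28-fold, from 204, 227 and 189 CPM to 701, 769.8 and 564 CPM (log2 fold change 1.71 ± 0.12 SE, edgeR adjusted p = 3.3e-06). Vegfa was at 93.7, 157 and 74.2 CPM with DMSO and 119, 229.6 and 466 CPM at 3 µM (log2 fold change 1.08 ± 0.56 SE, edgeR adjusted p = 0.116), with the groups overlapping, and its log2 fold change without culture 3 was 0.45 (adjusted p = 0.00701). The median log2 ratio of the list within cultures 1, 2 and 3 was 1.28, 1.76 and 2.64, largest in culture 3, in which the mitosis list had its smallest value.

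The respiratory chain stayed near its level in DMSO. Of 30 nuclear subunits 11 were called higher and 2 lower, against 34.1% and 34.8% of all tested genes. None of these subunits changed by more than 2-fold. Their mean share of counts was 0.602% with DMSO and 0.600% at 3 µM (exact permutation p = 1.0, two-sided). Shares use raw totals. In CPM, with the scaling used for the calls, the list summed to 5862, 7163 and 4932 with DMSO and 7310, 8019 and 5276 at 3 µM. The higher calls fell to 4 without the block, 7 with library size alone, 6 with only these 2 groups and 4 without culture 1, and the lower calls rose to 11 with library size alone and 6 under a stricter filter. Atp5h was at 121, 119 and 99.7 CPM with DMSO and 166, 179 and 128 CPM at 3 µM (log2 fold change 0.47 ± 0.07 SE, edgeR adjusted p = 4.6e-04). Sdha and Sdhb, subunits of complex II, were those called lower. Sdha was at 341, 456 and 292 CPM with DMSO and 267, 272 and 208 CPM at 3 µM (log2 fold change −0.53 ± 0.09 SE, edgeR adjusted p = 4.9e-04). Sdhb was at 109, 143 and 92.2 CPM with DMSO and 76.7, 89.6 and 57.6 CPM at 3 µM (log2 fold change −0.62 ± 0.08 SE, edgeR adjusted p = 1.3e-04). Of 11 mitochondrially encoded genes 2 were called higher (1 without the block, none with library size alone, with only these 2 groups, without culture 1 or without the DMSO library of culture 3, and 6 without the 3 µM library of culture 3).

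Cholesterol and fatty acid synthesis separated. In the sterol pathway 14 of 22 genes were called higher and 1 lower. Idi1, an isomerase early in the pathway, was at 50.4, 101 and 63.3 CPM with DMSO and 329, 387 and 138 CPM at 3 µM (log2 fold change 1.95 ± 0.28 SE, edgeR adjusted p = 2.8e-04). Insig1, the brake on this pathway, fell, from 278, 788 and 363 CPM to 93.5, 87.98 and 33.03 CPM (log2 fold change −2.77 ± 0.32 SE, edgeR adjusted p = 7.1e-05). The list's median log2 ratio within cultures 1, 2 and 3 was 1.61, 0.73 and 0.15, closest to 0 in culture 3. With library size alone or without the DMSO library of culture 1, 2 members were called lower.

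Of 19 genes of fatty acid and triglyceride synthesis 15 were called lower, 13 of them more than 2-fold. None was called higher, by edgeR at an adjusted or unadjusted p under 0.05 or by DESeq2, and 1 was without culture 3, without its 3 µM library or without the DMSO library of culture 2. Scd1, the Δ9-desaturase (ENSMUSG00000037071, chr19:44394451-44407709), lost more CPM than any other gene, from 15404, 32121 and 12897 CPM to 1406, 1757 and 1595 CPM (log2 fold change −3.49 ± 0.43 SE, edgeR adjusted p = 1.1e-04). Fasn, fatty acid synthase, fell from 1369, 4044 and 1999.6 CPM to 589, 634 and 498 CPM (log2 fold change −2.01 ± 0.27 SE, edgeR adjusted p = 1.8e-04). Agpat2, which builds phosphatidic acid, fell from 437, 923 and 388 CPM to 31.5, 39.4 and 23.4 CPM (log2 fold change −4.15 ± 0.34 SE, edgeR adjusted p = 9.5e-06). Scd2, the isoform widely expressed outside fat, was at 1486, 3046 and 1525 CPM with DMSO and 2469, 2642 and 1857 CPM at 3 µM (log2 fold change 0.24 ± 0.21 SE, edgeR adjusted p = 0.315). Acly, which supplies acetyl-CoA, was at 519, 1202 and 638 CPM with DMSO and 650.5, 694 and 473 CPM at 3 µM (log2 fold change −0.32 ± 0.20 SE, edgeR adjusted p = 0.184). The DMSO library of culture 2 was the highest for Scd1, Fasn and Agpat2. Scd2 passed as higher without that library (log2 fold change 0.50, adjusted p = 0.0370), and Acly as lower without culture 1 (−0.62, adjusted p = 0.0395), without the DMSO library of culture 1 (−0.55, adjusted p = 0.0208) and with library size alone (−0.51, adjusted p = 0.0352).

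Culture 2 was also highest with DMSO in the adipocyte markers named here, and all 7 were called more than 2-fold lower. Fabp4, the fatty acid binding protein of fat cells, fell from 3643, 6473 and 2354 CPM to 102, 193 and 34.3 CPM (log2 fold change −5.48 ± 0.37 SE, edgeR adjusted p = 3.9e-06). Adipoq, adiponectin, fell from 512, 889.8 and 403 CPM to 8.46, 16.7 and 0.690 CPM (log2 fold change −6.55 ± 0.61 SE, edgeR adjusted p = 2.1e-05). Plin1, which coats fat droplets, fell from 353, 634 and 214 CPM to 7.83, 16.1 and 1.03 CPM (log2 fold change −5.95 ± 0.53 SE, edgeR adjusted p = 1.6e-05). The lipid uptake genes Cd36 and Lpl fell too, Cd36 from 1393, 2570.5 and 1022 CPM to 29.9, 64.4 and 17.5 CPM (log2 fold change −5.58 ± 0.29 SE, edgeR adjusted p = 1.2e-06). Lpl fell from 3209, 7450.3 and 3571 CPM to 84.1, 175 and 112 CPM (log2 fold change −5.20 ± 0.38 SE, edgeR adjusted p = 5.7e-06). Of the 7 markers, Lep, leptin, was at 0 in the 3 µM library of culture 3, and no other value was 0. The part of adipocyte RNA in the fall of the fatty acid genes was not tested.

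Ligands of the EGF receptor family rose. Of 13 genes 10 were called higher and 1 lower, with 2 lower under library size alone or without the 3 µM library of culture 1 and none without the block. Areg, amphiregulin, the ligand that drives ductal growth in the gland, was at 1.69, 1.32 and 2.37 CPM with DMSO and 33.7, 44.6 and 44.9 CPM at 3 µM (log2 fold change 4.46 ± 0.20 SE, edgeR adjusted p = 6.4e-07). Tgfa was at 15.7, 10.6 and 7.21 CPM with DMSO and 55.2, 63.5 and 115 CPM at 3 µM (log2 fold change 2.83 ± 0.36 SE, edgeR adjusted p = 1.2e-04). Hbegf was at 4.53, 4.46 and 4.36 CPM with DMSO and 22.3, 31.8 and 47.9 CPM at 3 µM (log2 fold change 2.86 ± 0.21 SE, edgeR adjusted p = 5.6e-06). Epgn, epigen, was at 3.69, 0.812 and 0.969 CPM with DMSO and 109, 88.1 and 41.4 CPM at 3 µM (log2 fold change 5.37 ± 0.29 SE, edgeR adjusted p = 1.4e-06). All DMSO libraries lay below all 3 µM libraries for these 4 ligands. Egfr was at 129, 139 and 241 CPM with DMSO and 80.1, 78.5 and 145 CPM at 3 µM, with overlapping groups (log2 fold change −0.74 ± 0.08 SE, edgeR adjusted p = 5.1e-05, and adjusted p = 0.104 without the block). Erbb3 was at 223, 145 and 181 CPM with DMSO and 281, 292 and 271 CPM at 3 µM (log2 fold change 0.63 ± 0.13 SE, edgeR adjusted p = 0.00237).

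FGF and TGFβ genes moved in both directions. Fgfr1, a receptor of basal cells and stroma, fell from 579, 474 and 633 CPM to 53.04, 64.3 and 153 CPM (log2 fold change −2.76 ± 0.24 SE, edgeR adjusted p = 1.5e-05). Fgfr3, found in epidermis, rose from 8.66, 9.64 and 9.04 CPM to 36.8, 35.4 and 38.6 CPM (log2 fold change 2.02 ± 0.17 SE, edgeR adjusted p = 9.0e-06). Fgfbp1, which releases FGFs from the matrix, was at 4.04, 3.45 and 1.72 CPM with DMSO and 246, 239.8 and 178 CPM at 3 µM (log2 fold change 6.19 ± 0.24 SE, edgeR adjusted p = 4.6e-07). In this list of 15 genes 3 were called higher and 7 lower (4 lower under a stricter filter). Of 21 TGFβ and BMP genes 3 were called higher and 9 lower, and the lower calls dropped to 4 without the block and 5 without culture 2. To set beside both lists, 34.1% of all tested genes were called higher and 34.8% lower. Tgfb3 fell 11.6-fold, from 489.6, 345 and 581 CPM to 40.4, 40.8 and 40.5 CPM (log2 fold change −3.53 ± 0.26 SE, edgeR adjusted p = 5.4e-06). Inhba, the activin A subunit, was at 2.49, 3.65 and 4.36 CPM with DMSO and 9.71, 19.6 and 116 CPM at 3 µM (log2 fold change 3.19 ± 0.50 SE, edgeR adjusted p = 4.2e-04). The BMP antagonist Grem1 was at 1.64, 2.74 and 0.484 CPM with DMSO and 8.62, 45.7 and 409 CPM at 3 µM (log2 fold change 5.77 ± 1.35 SE, edgeR adjusted p = 0.00429). Both were highest in culture 3 at 3 µM. Without culture 3 the log2 fold change of Grem1 was 3.37.

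Notch genes were called lower for 11 of 17 members and higher for 3. Hey2, a repressor induced by Notch, fell from 38.4, 32.9 and 33.6 CPM to 0.470, 0.513 and 0.483 CPM (log2 fold change −6.14 ± 0.16 SE, edgeR adjusted p = 9.9e-08). Hey1 fell from 169, 139 and 67.003 CPM to 10.3, 15.6 and 18.3 CPM (log2 fold change −2.98 ± 0.43 SE, edgeR adjusted p = 2.5e-04). Nrarp, a feedback inhibitor also induced by Notch, went the other way, from 30.8, 15.9 and 15.1 CPM to 94.2, 66.8 and 94.4 CPM (log2 fold change 2.07 ± 0.20 SE, edgeR adjusted p = 2.6e-05). Hes1 was at 55.9, 39.8 and 35.4 CPM with DMSO and 54.1, 48.3 and 59.9 CPM at 3 µM (log2 fold change 0.34 ± 0.14 SE, edgeR adjusted p = 0.0620). The receptors Notch1 and Notch2 fell, Notch1 from 376, 288 and 298 CPM to 242, 191 and 217 CPM (log2 fold change −0.56 ± 0.10 SE, edgeR adjusted p = 0.00106). Notch4, a receptor of blood vessels, fell from 29.4, 65.9 and 49.1 CPM to 3.84, 8.79 and 12.8 CPM (log2 fold change −2.66 ± 0.34 SE, edgeR adjusted p = 1.2e-04), beside the endothelial markers given below. Without culture 1 the log2 fold change of Hes1 was 0.54 (adjusted p = 0.0376).

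Genes of contractile myoepithelium fell although basal keratins rose. Of 17 members 14 were called lower and 1 higher, with a median log2 fold change of −3.69. Acta2, smooth muscle actin, was at 258, 292 and 428 CPM with DMSO and 19.3, 16.7 and 5.86 CPM at 3 µM (log2 fold change −4.37 ± 0.60 SE, edgeR adjusted p = 2.0e-04). Oxtr, the oxytocin receptor that triggers milk ejection, was at 176, 168 and 216 CPM with DMSO and 2.59, 0.962 and 0.621 CPM at 3 µM (log2 fold change −7.17 ± 0.72 SE, edgeR adjusted p = 3.2e-05). Myl9, the myosin light chain, was at 54.6, 44.2 and 72.8 CPM with DMSO and 0.470, 0.321 and 0.552 CPM at 3 µM (log2 fold change −7.06 ± 0.35 SE, edgeR adjusted p = 1.0e-06). The gap between groups was wide in all 3 cultures. Snai2, a transcription factor of basal cells, was the member called higher, from 12.4, 21.5 and 21.4 CPM to 50.9, 56.2 and 41.5 CPM (log2 fold change 1.48 ± 0.21 SE, edgeR adjusted p = 2.2e-04). Without culture 3 or either of its libraries, 2 members were called higher. Acta2, Myh11 and Myl9 are also made by smooth muscle and pericytes of vessels, and the 9 endothelial markers summed to 296 to 603 CPM with DMSO and 34.5 to 111 CPM at 3 µM. The part of vessel RNA in this fall was not tested.

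Most genes of a list of pan-luminal epithelial genes did not fall with Krt19. Some of its members, Epcam among them, are also on the list of epithelial markers, so the list does not mark luminal cells alone. Epcam, an adhesion molecule of epithelia, was at 609.8, 380 and 406 CPM with DMSO and 510.3, 539 and 759.7 CPM at 3 µM (log2 fold change 0.41 ± 0.23 SE, edgeR adjusted p = 0.132). Ehf, an ETS factor of luminal cells, was at 539, 319.8 and 357 CPM with DMSO and 968, 861 and 607 CPM at 3 µM (log2 fold change 1.00 ± 0.14 SE, edgeR adjusted p = 1.8e-04). Without culture 1 Epcam passed as higher (log2 fold change 0.73, adjusted p = 0.0407). Of 13 members 9 were called higher and 1 lower, and the higher calls fell to 5 without the block, with library size alone or with only these 2 groups, and to 4 without culture 2. Aqp5, a water channel, was the member that fell, from 69.6, 70.6 and 117 CPM to 14.96, 15.9 and 27.997 CPM (log2 fold change −2.15 ± 0.18 SE, edgeR adjusted p = 9.7e-06).

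Hormone receptors on the list of hormone-sensing luminal genes fell, and other members of that list rose. Esr1, the estrogen receptor, was at 24.1, 12.1 and 18.5 CPM with DMSO and 10.97, 5.58 and 3.65 CPM at 3 µM (log2 fold change −1.51 ± 0.23 SE, edgeR adjusted p = 3.7e-04). Pgr, the progesterone receptor, was at 4.26, 4.06 and 14.7 CPM with DMSO and 0.548, 0.641 and 1.17 CPM at 3 µM (log2 fold change −3.16 ± 0.34 SE, edgeR adjusted p = 3.8e-05). Prlr, the prolactin receptor, fell from 251, 154 and 163 CPM to 92.9, 68.04 and 71.99 CPM (log2 fold change −1.28 ± 0.16 SE, edgeR adjusted p = 9.4e-05). Areg and Wnt4, which these receptors control in the gland, were among the 4 of 14 called higher, Wnt4 at 6.31, 1.83 and 0.861 CPM with DMSO and 43.6, 54.1 and 8.07 CPM at 3 µM (log2 fold change 3.52 ± 0.40 SE, edgeR adjusted p = 6.4e-05). The higher calls also held cell surface markers. The list counted 5 lower calls with the block and 3 without. Of all tested genes, 34.1% were called higher and 34.8% lower with the block.

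Milk genes did not move as a program. Of 21 members 4 were called higher (2 without the block) and 9 lower, against 34.1% and 34.8% of all tested genes. Btn1a1, butyrophilin, which coats the milk fat globule (ENSMUSG00000000706, chr13:23456992-23465901), fell 117-fold, from 442, 355 and 367 CPM to 3.21, 2.82 and 4.07 CPM (log2 fold change −6.88 ± 0.23 SE, edgeR adjusted p = 3.6e-07). Mfge8, also of the globule, fell from 1708, 1375 and 1668 CPM to 280.3, 303 and 359 CPM (log2 fold change −2.34 ± 0.11 SE, edgeR adjusted p = 7.7e-07). Lalba, α-lactalbumin, fell from 10.3, 24.9 and 232 CPM to 2.35, 1.67 and 2.41 CPM (log2 fold change −4.51 ± 0.67 SE, edgeR adjusted p = 3.2e-04). The secreted antimicrobials went up, Ltf, lactoferrin, from 82.3, 27.8 and 20.1 CPM to 1446, 1482 and 144 CPM (log2 fold change 4.26 ± 0.57 SE, edgeR adjusted p = 1.7e-04). Lcn2, lipocalin 2, rose from 698, 513 and 823 CPM to 1057, 1219.7 and 1860.2 CPM (log2 fold change 1.00 ± 0.19 SE, edgeR adjusted p = 0.00130). Elf5, the master factor of alveolar cells, was at 437, 290 and 341 CPM with DMSO and 413, 344 and 213 CPM at 3 µM (log2 fold change −0.16 ± 0.16 SE, edgeR adjusted p = 0.423). The casein Csn1s1 was at 3.64, 5.28 and 128 CPM with DMSO and 157, 368 and 770.1 CPM at 3 µM, with both groups highest in culture 3 (log2 fold change 4.22 ± 0.67 SE, edgeR adjusted p = 4.6e-04, and adjusted p = 0.0633 without the block).

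Genes that tie cells to the basement membrane changed in both directions. Of 22 integrin, laminin and hemidesmosome genes 8 were called higher and 10 lower, against 34.1% and 34.8% of all tested genes. Lama3, a laminin α-chain, rose from 119.6, 88.4 and 108 CPM to 250, 226 and 502 CPM (log2 fold change 1.57 ± 0.21 SE, edgeR adjusted p = 1.7e-04). Itgb4, the β-chain of the hemidesmosome integrin, rose from 192, 112 and 105 CPM to 279, 266 and 391 CPM (log2 fold change 1.23 ± 0.23 SE, edgeR adjusted p = 0.00133). Lamc1, a laminin γ-chain, fell from 357, 623 and 434 CPM to 119, 136 and 219 CPM (log2 fold change −1.59 ± 0.19 SE, edgeR adjusted p = 7.8e-05). Itgb3 fell 19.5-fold, from 337, 287 and 309 CPM to 2.90, 8.98 and 40.8 CPM (log2 fold change −4.29 ± 0.75 SE, edgeR adjusted p = 8.7e-04). Itga8 fell from 482, 319 and 256 CPM to 37.997, 41.7 and 78.8 CPM (log2 fold change −2.68 ± 0.36 SE, edgeR adjusted p = 1.7e-04). In culture 3 the list's median log2 ratio was positive, at 0.45, against −0.43 and −0.53 in cultures 1 and 2.

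Of 19 collagen genes 16 were called lower (10 without the block). None was called higher by edgeR at an adjusted or unadjusted p under 0.05. By DESeq2 1 was, as by edgeR without culture 1, without either of its libraries or without the 3 µM library of culture 2. Collagens of basement membrane fell in each culture, Col4a1 from 914, 2289 and 1566 CPM to 75.1, 224 and 209 CPM (log2 fold change −3.28 ± 0.15 SE, edgeR adjusted p = 7.3e-07). Col15a1 fell from 325, 1016 and 758 CPM to 10.4, 27.5 and 15.4 CPM (log2 fold change −5.25 ± 0.19 SE, edgeR adjusted p = 4.1e-07). The fibrillar collagen Col3a1 spread widely between cultures in both groups, at 506, 2979.6 and 9284 CPM with DMSO and 43.4, 203 and 985 CPM at 3 µM (log2 fold change −3.57 ± 0.28 SE, edgeR adjusted p = 7.6e-06, and adjusted p = 0.107 without the block). It was lower at 3 µM within each culture. Postn, periostin, another stromal matrix protein, fell from 2468, 2394 and 3948 CPM to 54.5, 177 and 797 CPM (log2 fold change −3.67 ± 0.55 SE, edgeR adjusted p = 3.2e-04). Igfbp5, a secreted binding protein of insulin-like growth factors, fell from 18605, 14529 and 19977 CPM to 1776, 1244 and 2659 CPM (log2 fold change −3.26 ± 0.20 SE, edgeR adjusted p = 1.9e-06). Fibroblast markers moved with the collagens: 11 of 13 were called lower with the block and 3 without it, and their share of counts was 0.429, 0.958 and 2.50% with DMSO and 0.0216, 0.0998 and 0.501% at 3 µM (exact permutation p = 0.2, two-sided). The permutation does not pair libraries by culture, and the share was lower at 3 µM within each culture. Dcn, decorin, was at 38.7, 219 and 624 CPM with DMSO and 13.9, 115 and 1070.5 CPM at 3 µM (log2 fold change −0.54 ± 0.42 SE, edgeR adjusted p = 0.280), and without culture 3, the culture in which it was higher at 3 µM, its log2 fold change was −1.16 (adjusted p = 3.0e-04). The part of fibroblast RNA in the collagen result was not tested.

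Immune and vessel markers fell as well. All 11 tested macrophage markers were called lower, Lyz2, lysozyme, from 219.9, 1169.9 and 2264 CPM to 27.9, 89.1 and 62.8 CPM (log2 fold change −3.94 ± 0.39 SE, edgeR adjusted p = 2.7e-05). C1qa, of complement, fell from 12.8, 43.4 and 70.2 CPM to 0.783, 4.10 and 1.66 CPM (log2 fold change −4.15 ± 0.35 SE, edgeR adjusted p = 1.1e-05). With DMSO both were lowest in culture 1 and highest in culture 3, as was Col3a1. All 9 endothelial markers were called lower, among them Cdh5, VE-cadherin, from 94.7, 208 and 175 CPM to 9.79, 23.02 and 33.5 CPM (log2 fold change −3.01 ± 0.36 SE, edgeR adjusted p = 8.1e-05).

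Some abundant genes held their level. Of 105 genes at 500 CPM or more in both groups, 24 had a 95% interval of the log2 fold change inside ±0.5. Itgb1, the common β-subunit of matrix receptors, was at 780.3, 751 and 712 CPM with DMSO and 606, 626 and 1043 CPM at 3 µM (log2 fold change −0.01, 95% interval −0.38 to 0.37). Macf1, a linker of actin and microtubules, was at 508, 513 and 506 CPM with DMSO and 442, 382 and 724 CPM at 3 µM (log2 fold change −0.01, 95% interval −0.42 to 0.41), Tkt, transketolase, at 634, 517 and 425 CPM with DMSO and 562, 631 and 348 CPM at 3 µM (log2 fold change −0.05, 95% interval −0.36 to 0.26) and Ddx5, an RNA helicase, at 1369, 1166 and 1026 CPM with DMSO and 1234, 1161 and 1034 CPM at 3 µM (log2 fold change −0.05, 95% interval −0.23 to 0.13). The mitochondrial mt-Nd5 was at 2660.5, 3171 and 2179.5 CPM with DMSO and 3143, 2942 and 1845 CPM at 3 µM (log2 fold change −0.03, 95% interval −0.29 to 0.23). Without culture 3, Itgb1 and Macf1 passed as lower (log2 fold change −0.32 and −0.32, adjusted p = 0.00925 and 0.0131), and Ddx5 did with library size alone (−0.25, adjusted p = 0.0325).

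The lists described above mostly moved in 1 direction in the 3 cultures and differed in size. Culture 3 had the smallest median log2 ratio for mitosis (2.51, 2.92 and 1.70), ribosomal protein (1.69, 1.90 and 1.42) and barrier lipid genes (3.04, 3.04 and 1.70), and the largest for hypoxia-responsive genes (1.28, 1.76 and 2.64), in the order of cultures 1, 2 and 3. Adipocyte markers fell most in culture 3 (−5.47, −5.29 and −7.54). Over all tested genes the medians were −0.03, −0.03 and −0.02.

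**Figure D5:**
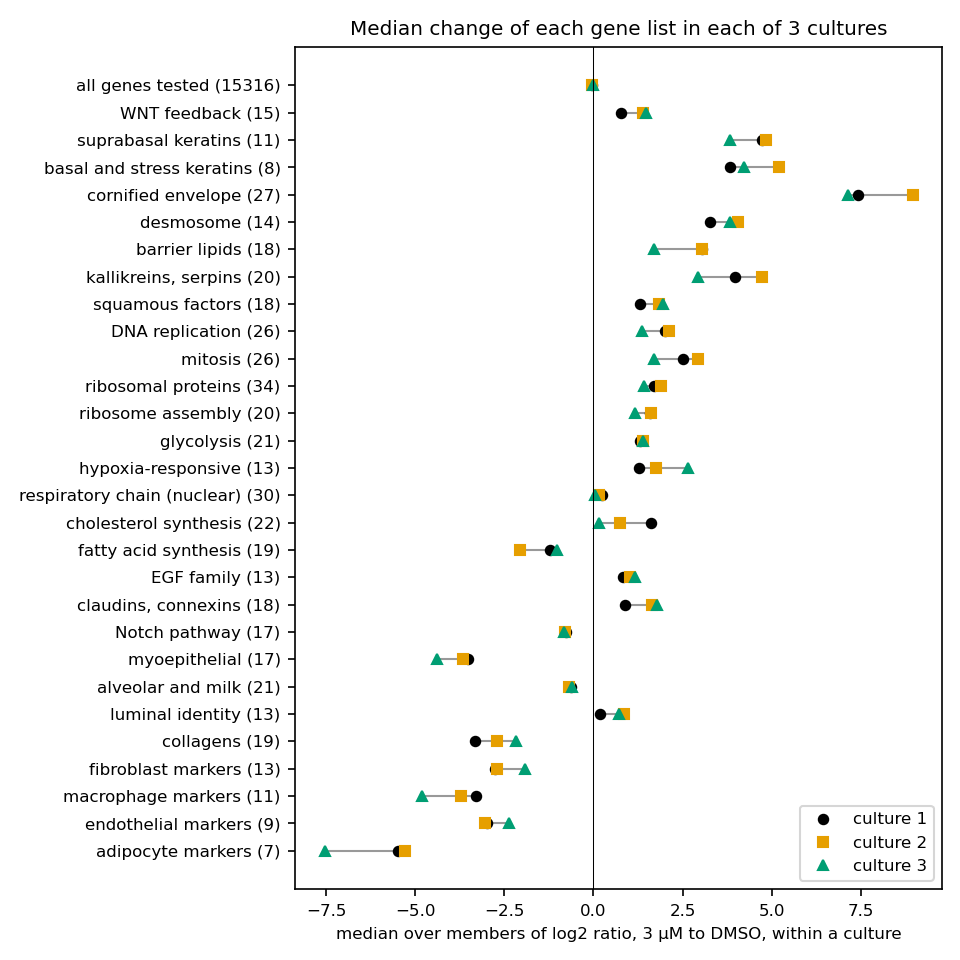
Median over the tested members of 28 gene lists (number in brackets), and over all genes, of the log2 ratio of 3 µM to DMSO within a culture, with 1 symbol per culture. All genes together sit near 0, the 3 symbols of a list lie on the same side of 0 for each list shown, and the widest spreads between cultures are those of adipocyte markers, cornified envelope genes and kallikreins and serpins.

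At 3 µM 7148 genes (46.7%) differed from the 1.5 µM libraries of the same cultures, 3784 (24.7%) higher and 3364 (22.0%) lower. This contrast shares the 3 µM libraries with the comparison above, so its values are set beside it and not taken as support. Ribosomal proteins were higher than at 1.5 µM for all 34 members, and collagens were lower for 16 of 19. Krt6a averaged 31.1 ± 13.9 CPM with DMSO, 1066 ± 87.6 CPM at 1.5 µM and 7769 ± 2848 CPM at 3 µM (SD, n = 3). Fatty acid synthesis had 7 of 19 genes lower and 1 higher than at 1.5 µM: Fasn averaged 2471 ± 1398 CPM with DMSO, 649 ± 173 CPM at 1.5 µM and 574 ± 69.1 CPM at 3 µM (SD, n = 3), and the last step had an edgeR adjusted p of 0.676. The nuclear respiratory chain, close to DMSO at 3 µM, was higher than at 1.5 µM for 21 of 30 genes. Atp5b averaged 1287 ± 298 CPM with DMSO, 1148 ± 125 CPM at 1.5 µM and 1498 ± 397 CPM at 3 µM (SD, n = 3, edgeR adjusted p = 0.0276 between the doses).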

How the data were processed

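Polyadenylated RNA of whole organoids was sequenced from a stranded TruSeq library, per the labels' protocols. The deposited table holds raw read counts of 25210 genes in 12 libraries. The submitters' processing notes name TopHat2 2.1, Bowtie 1.1.0, HTSeq, DESeq2 and the builds GRCm38 and mm10, and the strand setting of the counting is not given in the sources used here. A second deposited table of log2 values, recomputed from the counts without a difference, was not used.

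Counts of all 12 libraries were fitted with edgeR 4.0.16 in R 4.3.3 (filterByExpr, TMM scaling, robust quasi-likelihood F-test), with the 4 groups and the culture as terms. P-values were adjusted by Benjamini-Hochberg over 15316 genes, and a gene was called at an adjusted p under 0.05. Same-numbered libraries come from 1 animal per the series' design text. All 18 same-numbered pairs correlated in their deviations from the group means (0.177 to 0.840, median 0.505). The median of −0.212 for different numbers is not separate evidence, because deviations within a group cancel and make it negative. CPM values use TMM-scaled totals, with scaling factors of 0.97 to 1.04 for DMSO and 0.84 to 0.92 at 3 µM, and shares of counts use raw totals. Permutation tests of shares compared 3 with 3 libraries and did not pair them by culture. No pair of DMSO libraries and no pair of 3 µM libraries differed by less than sampling noise, and other pairs were not checked.

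Genes were named by rule: the 8 largest rises and falls by fold with at least 50 CPM in the higher and 5 CPM in the lower group, the 6 largest gains and losses in mean CPM, the 5 most stable genes at 500 CPM or more whose 95% interval lay within ±0.5, and from each gene list up to 4 called members a direction at 10 CPM or more, plus members given for their role. Of the 235 genes that the list part of the rule picks, the text names 117 and leaves out 118, so the named members are not always the largest changes of each list. Another 75 genes are named for their role only. Which to name was chosen with their values known. The gene lists and named genes were chosen with earlier results of these data known. Coordinates are those of GENCODE M21 (GRCm38), which holds 24902 of the gene IDs. Promoters are those of RefSeq (GRCm38.p6), matched by symbol. The motifs searched were CTTTGAT (TCF/LEF), TGANTCA (AP-1 and looser forms), the CCAAT box and the cell cycle homology region TTTGAA. Both strands were searched, overlaps allowed. E2F, E-box and NF-κB motifs were searched too, and their shares are not given. The model was tested on simulated counts. Alternatives were no block, other scalings and filters, DESeq2 1.42.0, only these 2 groups and leaving out each library or culture. Some members of the gene lists are counted in the lists but not reported by name here.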

Additional observations from a re-analysis of the deposited data

How the results depend on the processing

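With no replicate block, 8813 genes were called (4574 higher, 4239 lower) and 4809 by more than 2-fold (2011 higher, 2798 lower), and the contrast of 3 with 1.5 µM fell from 7148 to 4545 calls. Without the block no other count moved by over 1.5 times, apart from the list counts given beside their lists. The 3 with 1.5 µM contrast ranged from 3069 (without culture 2) to 8306 when 1 library or culture was left out, with 3593 without culture 1. For 3 µM against DMSO, leaving out 1 library or culture gave 7975 to 11152 calls (4002 to 5374 higher, 3973 to 5778 lower) and 4537 to 5765 by more than 2-fold (1810 to 2252 higher, 2727 to 3551 lower). Other settings gave 10543 calls (DESeq2's size factors), 10524 (library size alone, 3933 higher and 6591 lower), 10602 (no filter), 9236 (at least 50 counts in 3 libraries), 10535 (DESeq2) and 7773 (only these 2 groups). Of the 184 called genes named in the text, 177 kept call and direction in all 16 settings, 7 lost the call in at least 1, 5 of them without the block, and 0 reversed. With 1 library or culture left out, the log2 fold change of 3 called named genes (Ivl, Krt8 and Grem1) moved by over 1.5 times, and the report gives the values. Of 46 list shares of counts recomputed with TMM-scaled totals, 14 had a group difference that moved by more than the larger SD of the 2 groups. The number of cultures, 3, limits the precision of every fold, and genes with a few reads in 1 group have folds that depend on the prior count.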

Other observations

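Of 20 tested retinoid genes 7 were called higher and 9 lower, against 34.1% and 34.8% of all tested genes. Crabp2, a carrier of retinoic acid within cells, rose from 74.1, 51.1 and 53.9 CPM to 155, 169 and 208 CPM (log2 fold change 1.58 ± 0.17 SE, edgeR adjusted p = 5.2e-05). The receptor Rara fell from 58.2, 75.6 and 83.6 CPM to 13.3, 19.6 and 31.5 CPM (log2 fold change −1.81 ± 0.15 SE, edgeR adjusted p = 1.1e-05). Dhrs3, a reductase that is itself induced by retinoic acid, fell from 52.04, 57.5 and 72.9 CPM to 9.56, 15.1 and 16.6 CPM (log2 fold change −2.15 ± 0.11 SE, edgeR adjusted p = 1.1e-06). Rbp4, the carrier of retinol in blood, fell from 26.3, 109 and 150.4 CPM to 0.783, 2.31 and 10.1 CPM (log2 fold change −4.58 ± 0.43 SE, edgeR adjusted p = 2.0e-05), and is also made by fat cells.

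Matrix proteases split by enzyme, with 5 of 19 genes called higher and 10 lower. Mmp9, a gelatinase, was at 1.07, 1.22 and 6.35 CPM with DMSO and 61.3, 97.5 and 145 CPM at 3 µM (log2 fold change 5.40 ± 0.33 SE, edgeR adjusted p = 2.3e-06). Mmp13, a collagenase, was at 4.57, 6.90 and 24.6 CPM with DMSO and 71.4, 151 and 261 CPM at 3 µM (log2 fold change 4.00 ± 0.37 SE, edgeR adjusted p = 1.8e-05). Mmp10, a stromelysin, was at 0.266, 0.507 and 0.215 CPM with DMSO and 11.8, 48.1 and 237 CPM at 3 µM (log2 fold change 7.85 ± 0.77 SE, edgeR adjusted p = 2.7e-05), each highest in culture 3 at 3 µM. Adamts5, an aggrecanase, fell from 13.3, 83.9 and 194 CPM to 1.25, 1.80 and 5.59 CPM (log2 fold change −4.98 ± 0.41 SE, edgeR adjusted p = 9.7e-06). The inhibitor Timp2 fell from 448, 498 and 637 CPM to 94.5, 140.2 and 229 CPM (log2 fold change −1.83 ± 0.17 SE, edgeR adjusted p = 1.8e-05). Mmp3 was at 13.8, 22.4 and 162 CPM with DMSO and 85.004, 394 and 2272 CPM at 3 µM and lost its call without the block (edgeR adjusted p = 0.136).

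Enzymes of serine and one-carbon metabolism, on the list of stress genes driven by the factor ATF4, rose with Atf4 itself, which was at 245, 230 and 241 CPM with DMSO and 480, 423 and 411 CPM at 3 µM (log2 fold change 0.88 ± 0.07 SE, edgeR adjusted p = 7.0e-06). Psat1 was at 173, 208 and 187 CPM with DMSO and 706, 716 and 424 CPM at 3 µM (log2 fold change 1.68 ± 0.16 SE, edgeR adjusted p = 2.0e-05). Shmt2 was at 66.6, 62.4 and 68.9 CPM with DMSO and 249, 289.7 and 207 CPM at 3 µM (log2 fold change 1.91 ± 0.15 SE, edgeR adjusted p = 6.2e-06). Phgdh was at 41.2, 44.6 and 37.9 CPM with DMSO and 112, 121 and 79.4 CPM at 3 µM (log2 fold change 1.32 ± 0.12 SE, edgeR adjusted p = 1.4e-05). The other arm of that list, chaperones of the endoplasmic reticulum, was not called higher, and its member Dnajb9 fell from 49.9, 63.4 and 51.8 CPM to 21.5, 22.3 and 19.9 CPM (log2 fold change −1.37 ± 0.10 SE, edgeR adjusted p = 3.9e-06). In all, 8 of 16 members were called higher and 3 lower (1 lower without the block, without culture 1 or without culture 2). The split into arms was not complete. A transcription factor of unfolded protein stress was also among the largest rises, and another stress transcription factor was among the lower calls.

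Glutathione S-transferases changed isoform on the list of NRF2 targets. Of its 18 members 5 were called higher and 6 lower, against 34.1% and 34.8% of all tested genes. Gsta4 rose from 84.5, 90.9 and 33.5 CPM to 319, 401 and 228 CPM (log2 fold change 2.28 ± 0.16 SE, edgeR adjusted p = 4.2e-06). Gstm1 fell from 272, 296 and 122 CPM to 39.1, 51.2 and 36.5 CPM (log2 fold change −2.33 ± 0.22 SE, edgeR adjusted p = 2.0e-05). Gsta3 fell from 67.2, 67.8 and 13.99 CPM to 3.76, 8.27 and 4.83 CPM (log2 fold change −2.85 ± 0.48 SE, edgeR adjusted p = 7.0e-04). These are paralogs, and shared reads could move between them. The factor's own gene, Nfe2l2, was at 158, 132 and 123 CPM with DMSO and 282, 258 and 255 CPM at 3 µM (log2 fold change 0.95 ± 0.09 SE, edgeR adjusted p = 2.7e-05).

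Among the guidance receptors, Epha3 fell from 14.6, 16.1 and 23.1 CPM to 0.313, 0.385 and 0.483 CPM (log2 fold change −5.50 ± 0.23 SE, edgeR adjusted p = 5.5e-07). Epha2 rose from 27.97, 25.6 and 37.1 CPM to 67.5, 83.9 and 115 CPM (log2 fold change 1.53 ± 0.15 SE, edgeR adjusted p = 2.2e-05), in a list with 5 of 16 genes called higher and 2 lower (5 lower without culture 3 or without its 3 µM library, 1 without culture 1). YAP pathway genes had 4 of 13 called higher and 4 lower (2 lower without culture 1). The shares over all tested genes, to set beside these lists and the interferon and antigen presentation lists that follow, were 34.1% higher and 34.8% lower. The YAP target Ctgf was at 68.3, 111 and 82.6 CPM with DMSO and 38.3, 107 and 112 CPM at 3 µM (log2 fold change −0.02 ± 0.45 SE, edgeR adjusted p = 0.967). Interferon-induced genes had 1 of 21 called higher (2 in DESeq2 or without the DMSO library of culture 3, 3 without culture 3 or without its 3 µM library) and 8 lower (5 without culture 2). Gbp2, a guanylate-binding protein, fell from 49.9, 82.9 and 59.5 CPM to 7.29, 7.95 and 9.93 CPM (log2 fold change −2.90 ± 0.24 SE, edgeR adjusted p = 1.1e-05). Antigen presentation genes had 1 of 12 called higher and 6 lower. Tapbp, which loads peptides, fell from 249.6, 231 and 213 CPM to 139, 133 and 129.6 CPM (log2 fold change −0.78 ± 0.07 SE, edgeR adjusted p = 2.0e-05). H2-K1 was at 321, 341 and 293 CPM with DMSO and 365, 359.9 and 250.5 CPM at 3 µM (log2 fold change 0.01 ± 0.09 SE, edgeR adjusted p = 0.912).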
